A study of Mus musculus with 12 samples.

Results

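The genes described here are 10 transcription factors of effector regulatory T cells (Tregs) and of helper T cell types: Prdm1, Irf4, Batf, Maf, Tbx21, Gata3, Rora, Eomes, Nfil3 and Id2. They were taken by gene symbol, and their 10 rows stand among 24421 rows of the count table. All 10 passed the filter on low counts that left 12461 genes to test. Tregs were sorted from mouse spleen and lymph nodes on CD4 and on GFP and tdTomato reporters, and their ribosome-depleted RNA was sequenced in bulk. The knockout (KO) groups had lost CD25, which raises the affinity of the interleukin-2 receptor, by a Treg-specific deletion induced with tamoxifen, and the wild-type (WT) groups had kept it. Effector Tregs (eTreg) were gated as CD62L low and central Tregs (cTreg) as CD62L high. This gave 4 groups of 3 libraries each: KO eTreg, WT eTreg, KO cTreg and WT cTreg.

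Mice of all 4 groups received tamoxifen at 2 mg/kg for 5 days by the intraperitoneal route, and cells were harvested 10 days later. All groups carried R26tomato+/+ and Foxp3eGFPERT2+/+, so the controls share the reporters, this Foxp3 allele and the drug with the KO groups. The genotype field gives CD25WT/WT for the libraries titled KO and CD25FL/FL for those titled WT, the reverse of the titles and of the cell type field, and the groups here follow the titles. KO cells were also gated as CD25 low, so cells of a KO mouse that kept CD25 were left out, and the gate as well as the deletion sets the KO groups apart. Each library pooled 2 to 3 mice, so the spread between libraries is the spread between pools and not between single animals. The age of the mice is not given in the sources used here.

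Effector Tregs are antigen-experienced cells that leave the resting program and enter non-lymphoid tissue. In this state IRF4 and BATF bind DNA together at composite sites and open the program, and Blimp-1, the zinc finger repressor encoded by Prdm1, marks cells that make interleukin-10. T-bet (Tbx21), GATA3 and ROR-alpha (Rora) are best known as lineage regulators of helper T cells and innate lymphoid cells, and Tregs take up some of them to match the response they restrain. Interleukin-2 acts through CD25 and STAT5, and high CD25 is a feature of central Tregs, which rely on interleukin-2 for survival.

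The sequences before the transcription start are shown for 3 factors on which the results turn. Prdm1 and Tbx21 were called higher in KO than in WT cells of both gates, as were Batf and Nfil3, whose windows are not shown. Eomes was the single factor lower in eTreg than in cTreg among KO cells. Each line gives the 250 bases before the RefSeq start on the gene's strand, from assembly GRCm38.p6, and capitals mark a searched motif.
Prdm1, chr10:44458749-44458998, minus strand: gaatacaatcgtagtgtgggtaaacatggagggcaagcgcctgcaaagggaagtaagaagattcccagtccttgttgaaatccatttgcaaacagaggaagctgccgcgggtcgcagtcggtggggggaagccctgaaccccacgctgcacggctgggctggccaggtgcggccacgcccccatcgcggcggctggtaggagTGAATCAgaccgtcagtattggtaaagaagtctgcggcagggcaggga
Tbx21, chr11:97115332-97115581, minus strand: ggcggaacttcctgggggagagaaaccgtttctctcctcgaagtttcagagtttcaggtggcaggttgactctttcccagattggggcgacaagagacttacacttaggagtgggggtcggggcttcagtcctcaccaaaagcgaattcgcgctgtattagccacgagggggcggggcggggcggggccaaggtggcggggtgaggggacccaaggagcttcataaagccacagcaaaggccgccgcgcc
Eomes, chr9:118477939-118478188, plus strand: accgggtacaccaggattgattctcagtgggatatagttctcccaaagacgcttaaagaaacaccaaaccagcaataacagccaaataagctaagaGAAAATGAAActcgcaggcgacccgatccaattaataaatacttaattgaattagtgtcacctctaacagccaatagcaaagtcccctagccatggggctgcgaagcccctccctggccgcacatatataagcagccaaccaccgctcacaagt
The capitals in Prdm1 spell TGAATCA, a match to the AP-1 motif TGANTCA that lies 48 to 42 bases before the start. The Prdm1 locus given below spans 44437177 to 44528501 on the minus strand, so this window lies inside it. The bases before the outer end of that locus were not searched. Those in Eomes spell GAAAATGAAA, a match to the interferon regulatory factor element, GAAA and GAAA with any 2 bases between, that lies 154 to 145 bases before the start. The Tbx21 window held none of the motifs searched.

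Both strands were searched for 4 motifs in the windows of 9 of the 10 factors, since Maf had no entry in the table used. The AP-1 motif was in 1 of 9, against 6.87% of all 27025 promoters and 4.02% of the 9220 promoters of genes tested. The interferon regulatory factor motif was in 1 of 9, against 3.04% and 2.64%. The GATA motif AGATAA was in 1 of 9, that of Batf, against 10.3% and 5.84%, and the STAT motif TTCNNNGAA in 0 of 9, against 7.18% and 6.07%. A match is a description of the letters and not a site shown to be bound, and these windows say nothing of elements farther away.

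The libraries held 14567313 to 19121577 counts each. The ribosomal RNA precursor Rn45s took 3.19% to 3.32% of counts in KO eTreg, 4.11% to 4.34% in WT eTreg, 18.1% to 18.5% in KO cTreg and 22.4% to 24.4% in WT cTreg, so it moved with the gate and, within each gate, with the genotype. Levels below are CPM, counts scaled to library size, adjusted by the trimmed mean of M-values (TMM), which sets libraries on a common scale. Il2ra, the targeted gene, had 125, 116 and 132 CPM in KO eTreg, against 464, 562 and 542 CPM in WT eTreg, and 122, 112 and 113 CPM in KO cTreg, against 576, 523 and 579.8 CPM in WT cTreg. Its level follows the titles, although the CD25 gate bears on it too. Foxp3, which defines Tregs, had 158 to 187 CPM in KO eTreg, 231 to 256 CPM in WT eTreg, 217 to 233 CPM in KO cTreg and 385 to 407 CPM in WT cTreg. It was called lower in KO in both gates (log2 fold change -0.48 ± 0.06, adjusted p = 0.000205 in eTreg, and -0.79 ± 0.06, adjusted p = 1.47e-07 in cTreg, edgeR) and lower in eTreg than in cTreg in both genotypes, and its part in the results was not tested.

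Markers of other cells that use these factors were summed in each library. The summed CPM of 4 plasma cell genes stayed between 0.693 and 1.47 in KO eTreg, 0.453 and 1.21 in WT eTreg, 0.264 and 0.371 in KO cTreg, and 0.216 and 0.241 in WT cTreg. That of 4 natural killer cell genes was 11.4 in KO eTreg replicate 2 and at most 1.85 in every other library. The 11.4 CPM came from Klrb1c, which encodes NK1.1, while Ncr1, Klre1 and Klra8 were at 0 counts in that library. For 5 B cell genes the sums were 9.29 to 11.2 CPM in KO eTreg, 14.8 to 15.3 CPM in WT eTreg, 7.63 to 9.63 CPM in KO cTreg and 11.4 to 12.8 CPM in WT cTreg. For 5 myeloid genes they were 2.38 to 6.98 CPM in KO eTreg, 2.89 to 5.86 CPM in WT eTreg, 4.67 to 11.1 CPM in KO cTreg and 2.31 to 4.38 CPM in WT cTreg. For the 2 CD8 T cell genes they were 5.48 to 5.51 CPM in KO eTreg, 6.18 to 6.96 CPM in WT eTreg, 9.20 to 10.6 CPM in KO cTreg and 10.1 to 12.3 CPM in WT cTreg, nearly all from Cd8b1. The CD8 sums were thus lower in eTreg than in cTreg without overlap, as Eomes was among KO cells, while Cd8a had at most 8 counts in any library. The part of such cells in the results was not tested, and in bulk RNA fewer cells of a type cannot be told apart from less RNA per cell.

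All 10 factors were higher in KO than in WT cTreg, and 4 of them also passed the test in eTreg. In cTreg each was called higher in KO by the quasi-likelihood test of edgeR, a model of counts, at a Benjamini-Hochberg adjusted p under 0.05 over all genes tested, where 14.8% of 12461 genes were called higher and 27.5% in either direction. All 3 KO cTreg libraries lay above all 3 WT cTreg libraries for all 10 factors, against 20.9% of genes tested. In eTreg 4 of 10 were called higher and 0 lower, with no negative log2 fold change among the 10, against 3.25% called higher and 6.65% called in either direction. The 4 were Prdm1, Batf, Tbx21 and Nfil3. All 3 KO eTreg libraries lay above all 3 WT eTreg libraries for 7 factors, the 4 called and Maf, Gata3 and Id2, against 13.5% of genes tested. The median log2 fold change of the 10 factors, KO over WT, was 0.51 in eTreg and 1.65 in cTreg, where that of all genes tested was 0.01 and 0.00.

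The same-numbered KO and WT eTreg libraries deviated together from their group means, so the eTreg comparison was also fitted with the replicate number as a block. In that fit of the 6 eTreg libraries Maf and Id2 were called as well, with log2 fold changes of 0.27 (adjusted p = 0.000275) and 0.56 (adjusted p = 0.000322) by edgeR. This made 6 of 10 factors higher, against 7.54% of 12208 genes called higher and 14.0% in either direction. Being called higher in KO cells of both gates held for 4 of 10 factors and for 2.58% of genes tested.

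**Figure D1:**
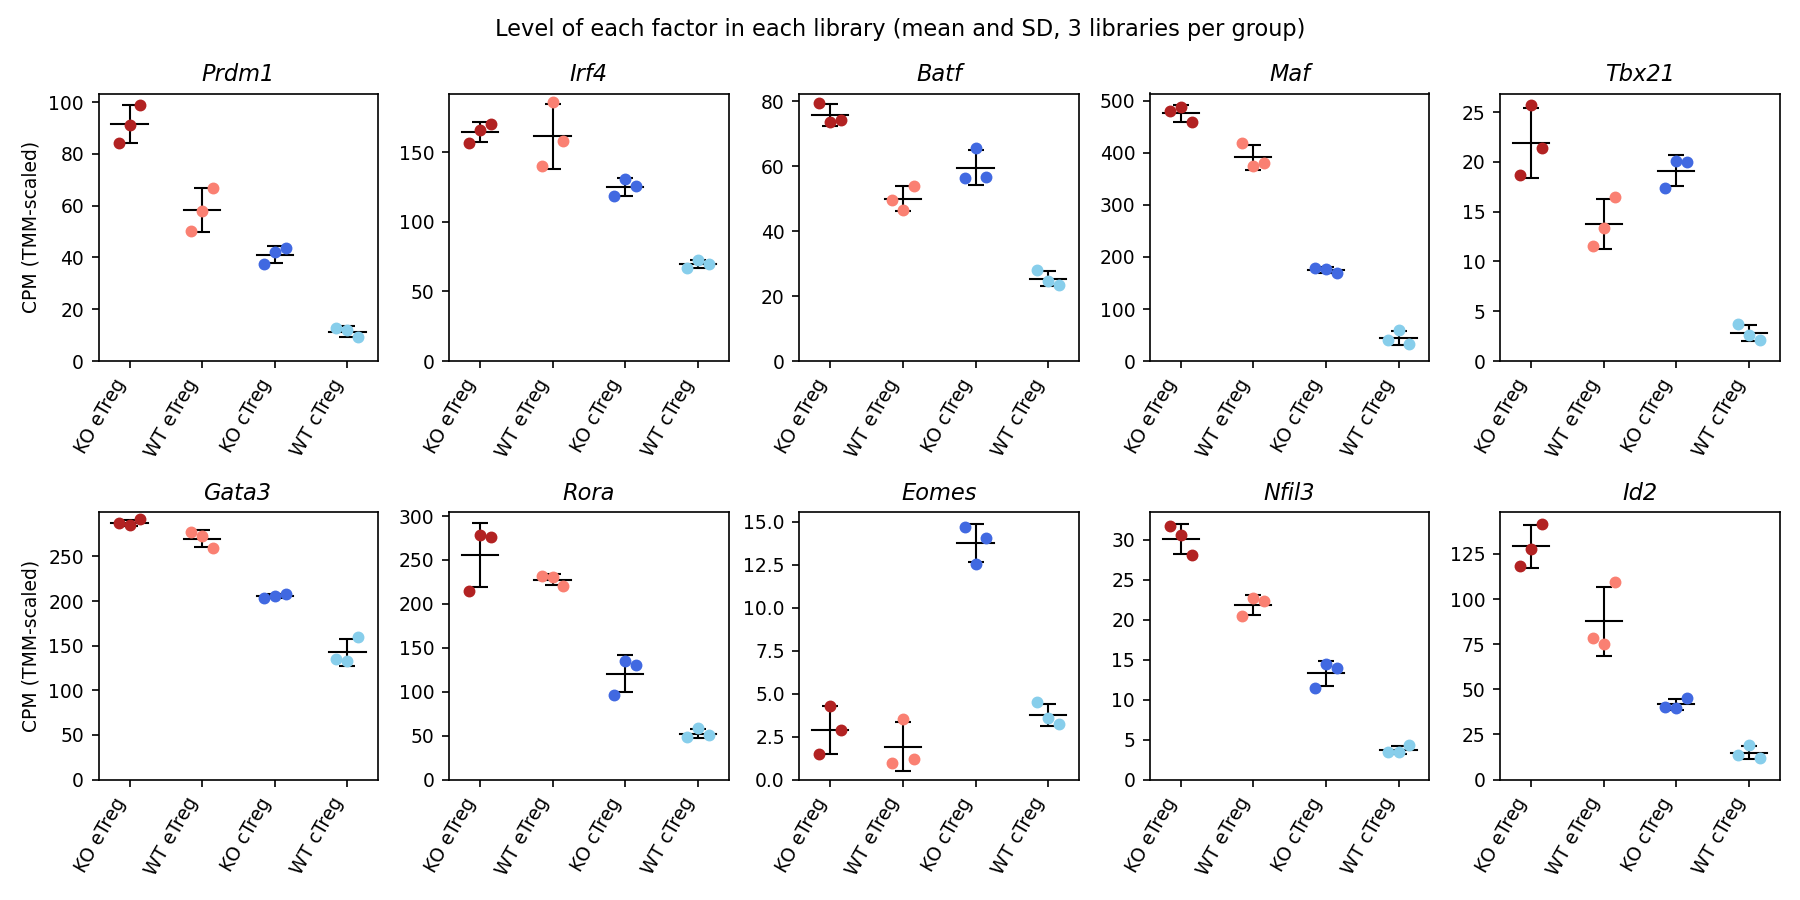
Level of each factor in each library. The horizontal axis gives the group (KO eTreg, WT eTreg, KO cTreg, WT cTreg), the vertical axis TMM-scaled CPM on a linear scale from 0, points are libraries, and bars are the mean and SD of 3. The 3 WT cTreg points lie below the 3 KO cTreg points in every panel, and Eomes is the one panel with its highest points in KO cTreg.

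Prdm1 lies on chromosome 10 (44437177 to 44528501, minus strand, mm10). In eTreg it had 84.2, 91.2 and 98.8 CPM in KO, against 50.1, 58.1 and 66.9 CPM in WT. In cTreg it had 37.6, 42.0 and 43.7 CPM in KO, against 12.9, 12.2 and 9.14 CPM in WT. The groups did not overlap in either gate, and KO cTreg stopped short of the lowest WT eTreg library. The log2 fold change was 0.65 ± 0.11 in eTreg (SE, n = 3 per group, adjusted p = 0.00287) and 1.85 ± 0.13 in cTreg (adjusted p = 6.34e-07) by edgeR, or 1.57-fold and 3.60-fold. Its partner in antagonism, Bcl6, which drives the follicular program and is repressed by Blimp-1, is known to oppose it. The ratio of Prdm1 to Bcl6 per kb of exon was 0.773 to 1.2 in KO eTreg and 0.625 to 1.27 in WT eTreg, and 0.749 to 1.07 in KO cTreg against 0.491 to 0.586 in WT cTreg. The ratio was thus higher in each KO cTreg library than in each WT cTreg library, while the eTreg groups overlapped.

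Irf4, on chromosome 13 (30749226 to 30766976, plus strand), encodes an interferon regulatory factor induced by antigen receptor signals. It had 157, 166 and 170.4 CPM in KO eTreg, against 139.9, 186 and 158 CPM in WT eTreg. The eTreg groups overlapped, with the highest and the lowest library both in WT. In cTreg it had 118, 131 and 126 CPM in KO, against 67.0, 72.7 and 69.6 CPM in WT. KO cTreg was well clear of WT cTreg, by a log2 fold change of 0.84 ± 0.08 (adjusted p = 3.95e-06, edgeR). In eTreg the log2 fold change was 0.03, with a 95% interval of -0.14 to 0.19, and it ran from -0.07 without WT eTreg replicate 1 to 0.14 without WT eTreg replicate 2.

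Batf, on chromosome 12 (85686669 to 85709087, plus strand), encodes the AP-1 family partner of IRF4. Its CPM were 79.6, 73.7 and 74.1 in KO eTreg, against 49.5, 46.6 and 54.0 in WT eTreg. In KO cTreg they were 56.4, 65.7 and 56.6, against 28.1, 24.6 and 23.6 in WT cTreg. KO libraries were higher in both gates with no overlap, and each KO cTreg library also exceeded each WT eTreg library. The log2 fold change was 0.60 ± 0.08 in eTreg (adjusted p = 0.000185) and 1.23 ± 0.08 in cTreg (adjusted p = 3.67e-08) by edgeR. The interval of the eTreg value was 0.44 to 0.76.

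Maf, on chromosome 8 (115682942 to 115707794, minus strand), encodes c-MAF, a basic leucine zipper factor that drives Il10 and Il21 in T cells. It had 481, 488 and 458 CPM in KO eTreg, against 419, 375 and 380.1 CPM in WT eTreg. Its cTreg values were 179, 176 and 168 CPM in KO, against 40.2, 59.0 and 33.2 CPM in WT. The KO libraries were the higher ones in both gates, and the eTreg libraries stood above all cTreg libraries. In cTreg the log2 fold change was 1.98 ± 0.16 (adjusted p = 1.39e-05, edgeR). In eTreg it was 0.28, with an interval of -0.04 to 0.60 and an adjusted p of 0.324, and this missed the threshold in the fit of all 12 libraries. It passed in the fit of the 6 eTreg libraries without a block (0.27, adjusted p = 0.0104), and without WT cTreg replicate 2 (0.28, adjusted p = 0.00919). An antisense gene, Gm15655, shares 440 exon bases with Maf, and since the strand setting of the counting is not given, its reads cannot be told apart from those of Maf there.

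Tbx21, on chromosome 11 (97098071 to 97115331, minus strand), encodes T-bet, the Th1 regulator that in Tregs directs expression of the chemokine receptor CXCR3. It had 18.6, 25.7 and 21.4 CPM in KO eTreg, against 11.5, 13.4 and 16.5 CPM in WT eTreg. In KO cTreg it had 17.3, 20.1 and 20.0 CPM, against 3.69, 2.60 and 2.15 CPM in WT cTreg. KO libraries lay above WT libraries in both gates, and the range of KO cTreg overlapped that of KO eTreg. In cTreg the log2 fold change was 2.77 ± 0.19 (6.83-fold, adjusted p = 8.72e-08, edgeR), the largest of the 10 factors. In eTreg it was 0.67 ± 0.15 (adjusted p = 0.0126), which missed the threshold when WT eTreg replicate 1 (0.56, adjusted p = 0.0523) or WT eTreg replicate 2 (0.65, adjusted p = 0.0577) was left out. The KO eTreg library with the raised Klrb1c was also the highest for Tbx21, and without it the log2 fold change was 0.54 (adjusted p = 0.0472).

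Eomes, on chromosome 9 (118478212 to 118486132, plus strand), encodes the other T-box factor of lymphocytes, known from cytotoxic and memory CD8 T cells and natural killer cells. It was the lowest of the 10 in CPM in both eTreg groups, with 1.50, 4.25 and 2.88 CPM in KO eTreg, against 0.969, 3.55 and 1.19 CPM in WT eTreg. These rest on 26, 81 and 52 counts in KO eTreg and 16, 77 and 21 counts in WT eTreg. Replicate 2 was the highest library in both eTreg groups, which overlapped. In cTreg it had 14.7, 12.6 and 14.0 CPM in KO, against 4.49, 3.60 and 3.23 CPM in WT, with every KO library above every WT library. The cTreg log2 fold change was 1.87 ± 0.40 (adjusted p = 0.00545, edgeR). In eTreg it was 0.55, with an interval of -0.46 to 1.56 and an adjusted p of 0.584, and it moved with single libraries. Without WT eTreg replicate 2 it was 1.42 (adjusted p = 0.0455, edgeR). Without KO eTreg replicate 2, the library with the raised Klrb1c, it was 0.15 (adjusted p = 0.919). Same-numbered eTreg libraries were taken to pair, so each of these fits leaves a replicate 2 library unmatched. Within each number KO eTreg was above WT eTreg, and Eomes was not called with the replicate block. The antisense gene Gm33460 shares 118 exon bases with Eomes.

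**Figure D2:**
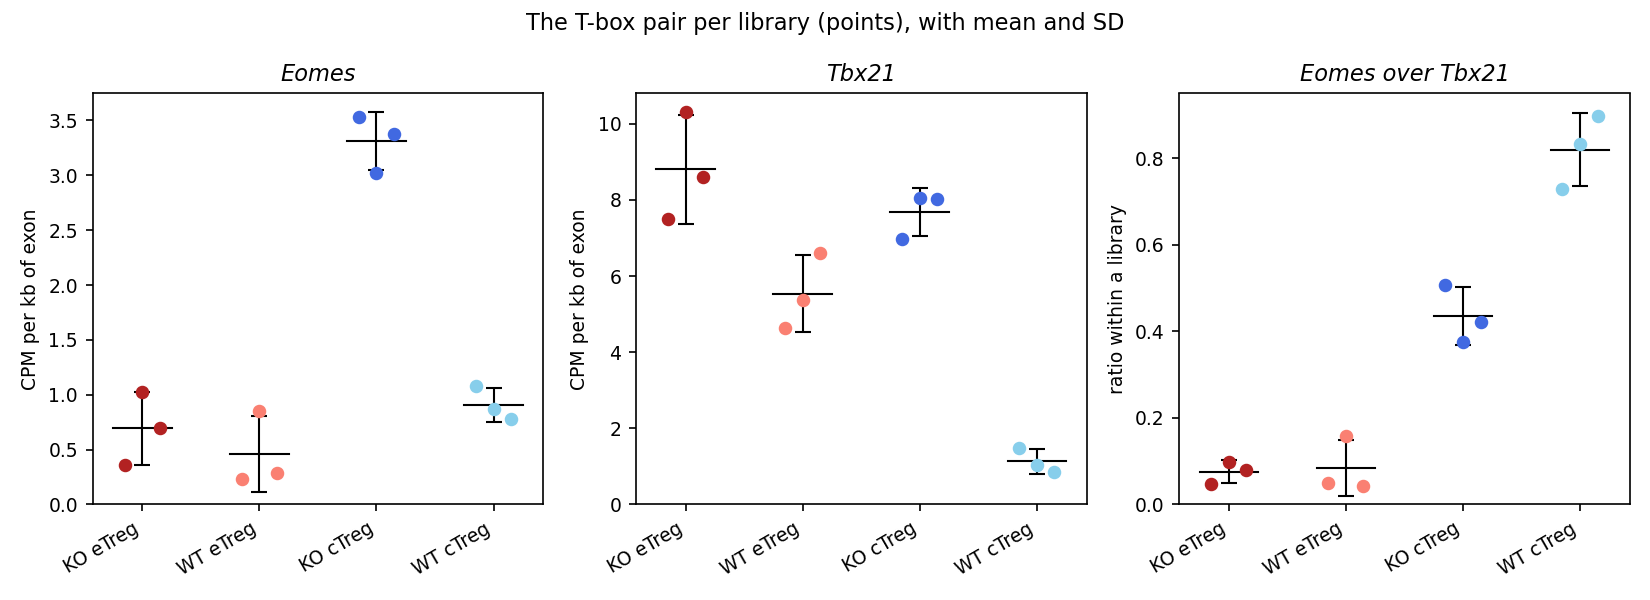
The T-box pair in each library. The vertical axes give Eomes and Tbx21 in CPM per kb of exon and the ratio of Eomes to Tbx21 within a library, the horizontal axes the 4 groups, points are libraries, and bars are the mean and SD of 3. The ratio is 0.0482 to 0.0992 in KO eTreg and 0.0432 to 0.159 in WT eTreg, below 0.375 to 0.507 in KO cTreg and 0.729 to 0.898 in WT cTreg.

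Set side by side per kb of exon, Tbx21 was above Eomes in all 12 libraries, by a margin that depended on the gate and, in cTreg, on the genotype. The ratio of Eomes to Tbx21 was 0.507, 0.375 and 0.421 in KO cTreg, against 0.729, 0.832 and 0.898 in WT cTreg, with no overlap. In eTreg it was 0.0482, 0.0992 and 0.0807 in KO, against 0.0504, 0.159 and 0.0432 in WT. The eTreg groups overlapped and lay below both cTreg groups.

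Gata3, on chromosome 2 (9857078 to 9890034, minus strand), encodes the Th2 regulator, which Tregs also use to keep Foxp3 expressed. It had 287, 285 and 292 CPM in KO eTreg, against 278, 273 and 259 CPM in WT eTreg. In KO cTreg it had 203, 206 and 208 CPM, against 136, 132 and 159.7 CPM in WT cTreg. The groups did not overlap in either gate, by a narrow margin in eTreg. The cTreg log2 fold change of 0.53 ± 0.06 (adjusted p = 6.91e-06, edgeR) was the smallest of the 10. The eTreg value was 0.09, with an interval of -0.03 to 0.22 (adjusted p = 0.425). Gm13256, on the other strand, shares 155 exon bases with Gata3, and 9230102O04Rik, on the same strand, shares 77.

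Rora, on chromosome 9 (68653786 to 69388246, plus strand), encodes a nuclear receptor of Th17 cells and group 2 innate lymphoid cells. It had 214, 278 and 276 CPM in KO eTreg, against 232, 230.3 and 221 CPM in WT eTreg. KO eTreg replicate 1 lay below all WT eTreg libraries and the others above them. In cTreg it had 96.2, 135 and 130.4 CPM in KO, against 48.2, 58.2 and 50.6 CPM in WT, with no overlap. The cTreg log2 fold change was 1.20 ± 0.15 (adjusted p = 0.000171, edgeR) and the eTreg value 0.17, with an interval of -0.12 to 0.46 (adjusted p = 0.554). The antisense gene Gm15511 shares 82 exon bases with Rora.

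Nfil3, on chromosome 13 (52967209 to 52981073, minus strand), encodes a basic leucine zipper repressor that mice need to form natural killer cells and other innate lymphoid cells. It had 31.7, 30.6 and 28.0 CPM in KO eTreg, against 20.4, 22.7 and 22.4 CPM in WT eTreg. In KO cTreg it had 11.5, 14.4 and 13.9 CPM, against 3.45, 3.46 and 4.30 CPM in WT cTreg. KO libraries were higher in both gates without overlap. Its log2 fold change was 0.46 ± 0.09 in eTreg (adjusted p = 0.0065) and 1.83 ± 0.13 in cTreg (adjusted p = 5.2e-08) by edgeR.

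Id2, on chromosome 12 (25093799 to 25097140, minus strand), encodes a helix-loop-helix protein that blocks DNA binding by E proteins. It had 118, 128 and 142 CPM in KO eTreg, against 78.3, 75.2 and 109.7 CPM in WT eTreg. In KO cTreg it had 39.9, 39.6 and 45.3 CPM, against 13.7, 18.9 and 12.2 CPM in WT cTreg. All KO libraries lay above all WT libraries in each gate. The cTreg log2 fold change was 1.47 ± 0.20 (adjusted p = 0.000453, edgeR). The eTreg value was 0.56, with an interval of 0.20 to 0.91 and an adjusted p of 0.072. It passed in limma-voom (0.58, adjusted p = 0.00895), without WT eTreg replicate 3 (0.75, adjusted p = 0.00574) and without WT cTreg replicate 2 (0.56, adjusted p = 0.0405).

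**Figure D3:**
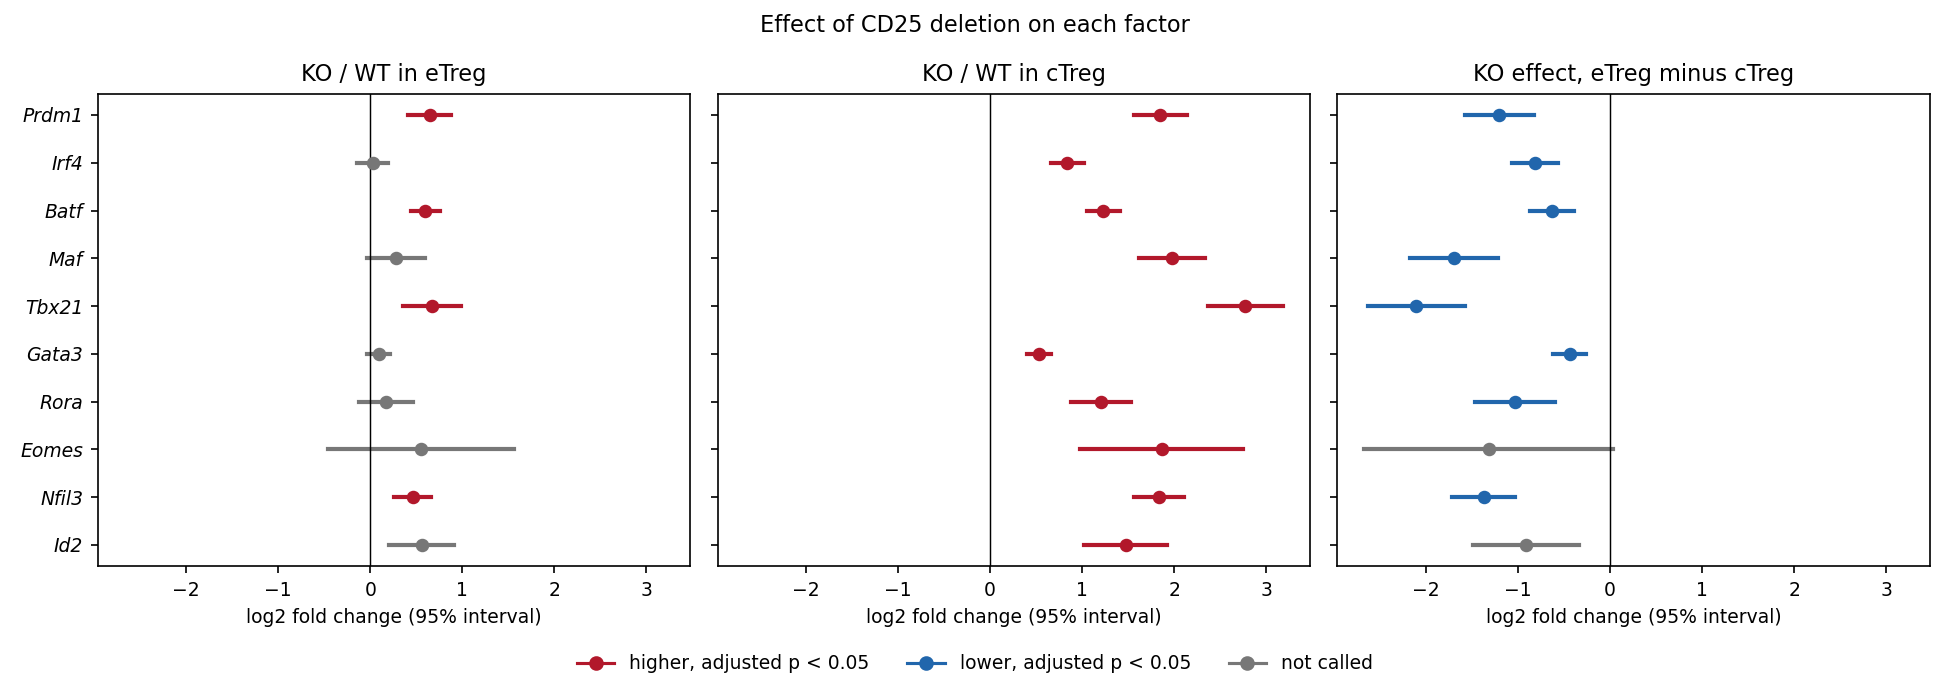
Difference between KO and WT cells in each factor, where the deletion and the CD25 low gate cannot be told apart. The horizontal axes give the log2 fold change, KO over WT, in eTreg and in cTreg and, in the right panel, the eTreg effect minus the cTreg effect. Points are edgeR estimates from 3 libraries per group, lines their 95% intervals, and colours the call at an adjusted p under 0.05. All 10 points lie right of 0 in cTreg, and all 10 lie left of 0 in the right panel, 8 of them called.

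The KO effect was smaller in eTreg than in cTreg for most of these factors. In the interaction test, which takes the log2 KO effect in eTreg minus that in cTreg, 8 of 10 factors were called lower and 0 higher, against 3.0% of genes called lower, 0.803% called higher and 3.8% in either direction. Tbx21 had the largest difference, at -2.10 ± 0.25 (SE, adjusted p = 0.000176, edgeR). Maf followed with -1.70 ± 0.21 (adjusted p = 0.00209), Nfil3 with -1.37 ± 0.16 (adjusted p = 0.000131) and Prdm1 with -1.20 ± 0.17 (adjusted p = 0.00153). Those of Irf4 and Batf were -0.82 ± 0.12 and -0.63 ± 0.11, and that of Gata3 was -0.44 ± 0.08. Rora had -1.03 ± 0.20 (adjusted p = 0.016), which missed the threshold when WT cTreg replicate 1 (-0.98, adjusted p = 0.0534) or WT cTreg replicate 3 (-1.01, adjusted p = 0.056) was left out. Eomes and Id2 were not called. The Eomes difference was -1.31 with an interval of -2.67 to 0.04. For Id2 it was -0.91 with an interval of -1.49 to -0.34 and an adjusted p of 0.0915, and it passed in the DESeq2 Wald test (-0.92, adjusted p = 0.0286) and without WT cTreg replicate 2 (-1.12, adjusted p = 0.0365). The difference is on a log scale, and WT eTreg started from higher levels than WT cTreg for every factor but Eomes.

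Between the gates, most of the factors stood higher in eTreg than in cTreg in both genotypes, and Eomes did not. Among WT cells 9 of 10 were called higher in eTreg and 0 lower, but 35.7% of all genes tested were also called higher, and 71.5% in either direction. Maf differed most, with 419, 375 and 380.1 CPM in WT eTreg against 40.2, 59.0 and 33.2 CPM in WT cTreg, a log2 fold change of 3.14 ± 0.16 (8.84-fold, adjusted p = 4.2e-08, edgeR). Nfil3 and Id2 differed by 2.55 ± 0.12 and 2.55 ± 0.19, Prdm1 by 2.35 ± 0.13, Tbx21 by 2.30 ± 0.20 and Rora by 2.12 ± 0.14. The smaller log2 differences were 1.21 ± 0.08 for Irf4, 0.98 ± 0.08 for Batf and 0.92 ± 0.06 for Gata3. Eomes ran the other way at -0.93, with an interval of -1.95 to 0.09 and an adjusted p of 0.0922. The WT cTreg libraries are those used for the KO effect in cTreg, and comparisons that name the same group always share its 3 libraries, so their values are not independent.

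The Eomes value rested on WT eTreg replicate 2, the highest of the 3 WT eTreg libraries for this gene. Without it the log2 fold change in WT was -1.79 (adjusted p = 0.000502, edgeR). It also passed in the DESeq2 Wald test (-0.95, adjusted p = 0.0234), in limma-voom (-1.12, adjusted p = 0.0314) and with a replicate block in the 6 WT libraries (-1.08, adjusted p = 0.0405).

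Among KO cells 8 of 10 factors were called higher in eTreg, against 36.1% of genes tested, and 1 was called lower, against 35.8%. In either direction 72.0% of genes were called. Eomes was the factor that fell, with 1.50, 4.25 and 2.88 CPM in KO eTreg against 14.7, 12.6 and 14.0 CPM in KO cTreg. The groups were far apart, by a log2 fold change of -2.24 ± 0.40 (adjusted p = 0.000378, edgeR). Tbx21 was not called, at 0.20 with an interval of -0.12 to 0.51, and its groups overlapped. Of those called, Id2 differed by 1.63 ± 0.17, Maf by 1.45 ± 0.15, Nfil3 by 1.18 ± 0.10 and Prdm1 by 1.15 ± 0.11. Rora differed by 1.08 ± 0.14, Gata3 by 0.48 ± 0.06, Irf4 by 0.40 ± 0.08 and Batf by 0.35 ± 0.08. Eomes thus goes against the name of an effector factor in these cells.

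Values across the gates depended on gene length and GC content, and the part of the larger Rn45s share of cTreg in this was not tested. With both modelled as an offset, the KO eTreg over KO cTreg value of Tbx21 became 0.89 and was called (adjusted p = 0.000132, edgeR), and that of Rora fell to 0.28 and was not (adjusted p = 0.153). Batf, a short gene with 1.406 kb of exon, became 1.01 among KO cells and 1.57 among WT cells. Rora, with 13.071 kb, became 1.36 among WT cells, and Irf4 became 0.21 among KO cells. The calls of KO over WT within a gate and of the interaction were the same with this offset for all 10 factors.

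**Figure D4:**
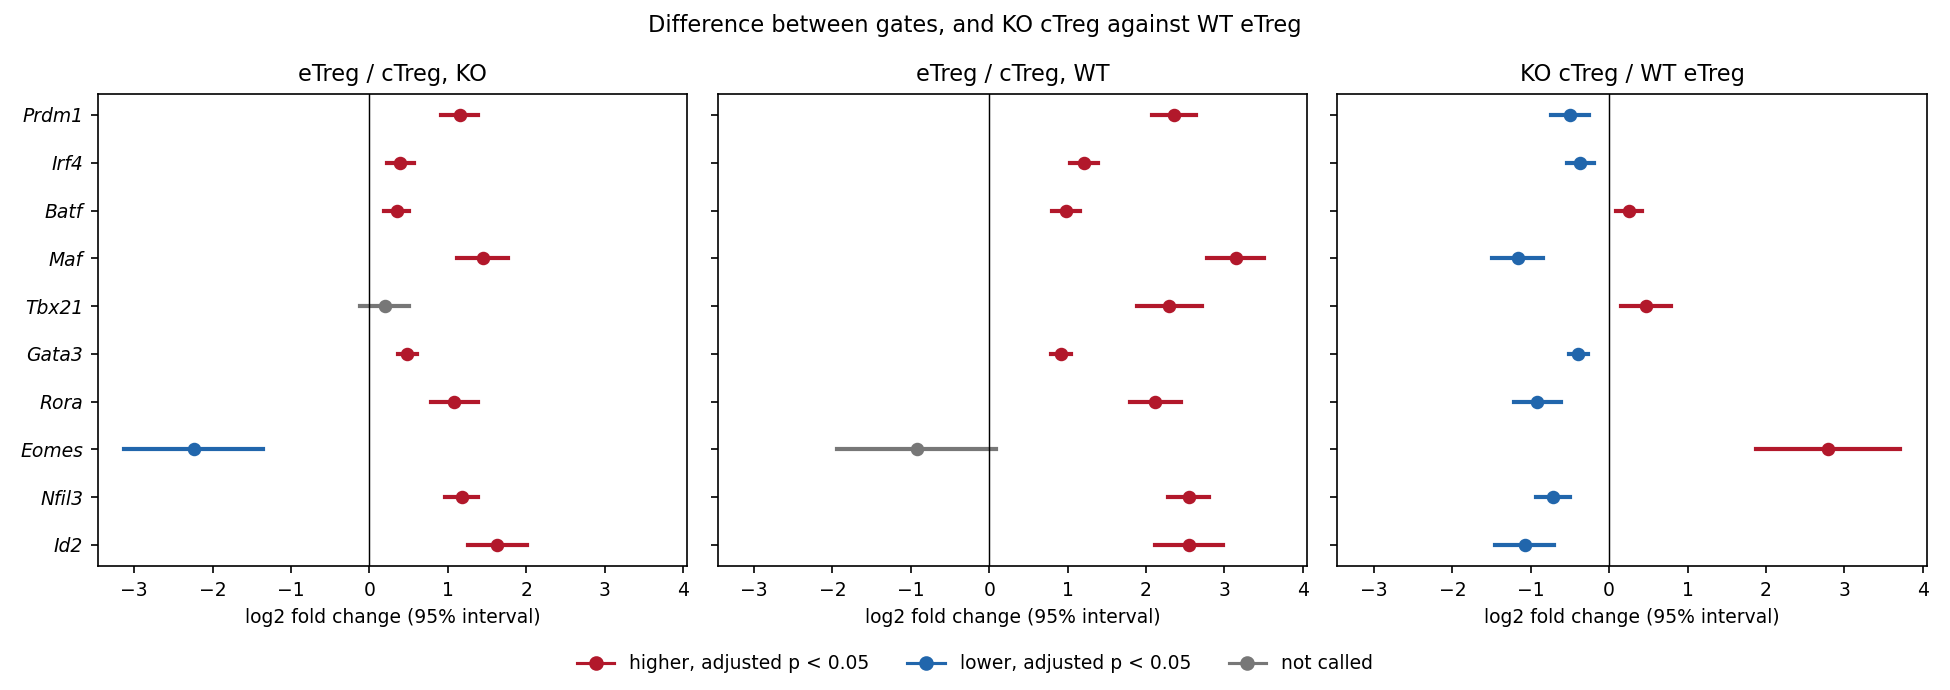
Differences across the gates. The horizontal axes give the log2 fold change of eTreg over cTreg among KO cells and among WT cells, and of KO cTreg over WT eTreg. Points are edgeR estimates from 3 libraries per group, lines their 95% intervals, and colours the call at an adjusted p under 0.05. Eomes stands apart from the other factors in all 3 panels, left of 0 in the first 2 and right of 0 in the third.

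Setting KO cTreg against WT eTreg asks how far cTreg without CD25 reach the levels of intact eTreg, and the groups differ in both genotype and gate. Of the 10 factors 7 remained lower in KO cTreg, against 35.1% of genes tested, and 3 were higher, against 35.2%. In all, 70.2% of genes were called. Maf was lower by the most, with 179, 176 and 168 CPM in KO cTreg against 419, 375 and 380.1 CPM in WT eTreg (log2 fold change -1.16 ± 0.15, adjusted p = 4.49e-05, edgeR). Id2 (-1.07 ± 0.17), Rora (-0.92 ± 0.14), Nfil3 (-0.71 ± 0.10), Prdm1 (-0.50 ± 0.11), Gata3 (-0.39 ± 0.06) and Irf4 (-0.37 ± 0.08) were lower as well. Eomes was the highest in relation to WT eTreg, at 2.79 ± 0.42 (adjusted p = 0.000102).

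Tbx21 and Batf were also called higher in KO cTreg than in WT eTreg, and these calls changed with the processing. Tbx21 had 17.3, 20.1 and 20.0 CPM in KO cTreg, against 11.5, 13.4 and 16.5 CPM in WT eTreg (0.47 ± 0.15, adjusted p = 0.0107, edgeR). With the length and GC offset the value turned to -0.18 (adjusted p = 0.341), and without WT eTreg replicate 1 it was 0.37 (adjusted p = 0.0519). Batf had 56.4, 65.7 and 56.6 CPM in KO cTreg, against 49.5, 46.6 and 54.0 CPM in WT eTreg (0.25 ± 0.08, adjusted p = 0.00755). The offset turned it to -0.37 (adjusted p = 0.00051), and without KO cTreg replicate 2 it was 0.18 (adjusted p = 0.0541). The same offset ended the calls of Prdm1 (-0.23, adjusted p = 0.107) and Rora (-0.17, adjusted p = 0.395).

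Ordered by CPM per kb of exon, Gata3 was the most abundant factor in every group and Eomes the least. Gata3 averaged 72.4 ± 0.875 per kb in KO eTreg, 67.8 ± 2.44 in WT eTreg, 51.7 ± 0.603 in KO cTreg and 35.8 ± 3.74 in WT cTreg (SD, n = 3). Eomes averaged 0.693 ± 0.331 per kb in KO eTreg, 0.458 ± 0.345 in WT eTreg, 3.31 ± 0.262 in KO cTreg and 0.908 ± 0.156 in WT cTreg. The places between them changed with the gate. Maf came next after Gata3 in eTreg, at 57.7 per kb in KO and 47.5 in WT, while in cTreg that place was held by Batf, at 42.4 in KO and 18.1 in WT. In KO eTreg the libraries of Maf, Batf (53.9) and Id2 (53.0) overlapped, as did those of Rora (19.6), Prdm1 (16.4) and Nfil3 (14.9), each with the next. In WT eTreg overlaps joined Id2 (36.0), Batf (35.6) and Irf4 (32.9), and also Nfil3 (10.8) and Prdm1 (10.5). In KO cTreg Irf4 (25.5), Maf (21.2) and Id2 (17.1) were apart from each other, and Rora (9.22), Tbx21 (7.69), Prdm1 (7.37) and Nfil3 (6.56) overlapped in turn. In WT cTreg Id2 (6.13), Maf (5.36) and Rora (4.01) overlapped in turn, as did Prdm1 (2.05) with Nfil3 (1.84) and Tbx21 (1.13) with Eomes.

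Of 16 genes known as targets that these factors activate in T cells, 15 were tested, and Il5 was too low. In KO over WT cTreg 10 were called higher and 1 lower, and in KO over WT eTreg 5 were called higher and 0 lower by edgeR. Over all genes tested 14.8% were called higher and 12.6% lower in cTreg, and 3.25% higher and 3.4% lower in eTreg. In that eTreg comparison 2 genes with lower values had an unadjusted p under 0.05, and DESeq2 and limma-voom called 0 lower too. Over the 15 genes, log2 fold changes of KO over WT had a median of 0.39 in eTreg and 2.20 in cTreg. Cxcr3, the T-bet target, had 85.1, 93.1 and 101 CPM in KO eTreg, against 55.9, 49.9 and 70.3 CPM in WT eTreg, and 85.9, 98.3 and 93.3 CPM in KO cTreg, against 10.8, 9.59 and 10.1 CPM in WT cTreg. Like Tbx21, it overlapped between KO cTreg and KO eTreg, and all KO cTreg libraries lay above all WT eTreg libraries. Il10, a target of Blimp-1 and c-MAF, had 3.19, 2.99 and 2.24 CPM in KO cTreg, against 0.0802, 0 and 0.307 CPM in WT cTreg (log2 fold change 4.38 ± 0.57, adjusted p = 6.41e-05, edgeR). In eTreg it was not called, with 12.8, 20.0 and 15.3 CPM in KO and 9.75, 15.9 and 11.6 CPM in WT. Gzmb, which encodes granzyme B, rose in both gates (2.01 ± 0.39 in eTreg and 4.80 ± 0.63 in cTreg), and so did Il21 (1.29 ± 0.23 and 4.43 ± 0.55). The size of these cTreg rises rests on few counts in WT cTreg. These were 10, 10 and 8 for Gzmb, 2, 2 and 3 for Il21, and 1, 0 and 4 for Il10. The single fall was that of Il2rb, the beta chain of the interleukin-2 receptor, in cTreg (-0.39 ± 0.05). Across the gates in WT, where 35.7% of all genes tested were called higher and 35.8% lower, 12 of the 15 were called higher in eTreg and 2 lower, namely Il2rb and Prf1, which encodes perforin and is known from T-box control in cytotoxic cells (-2.60 ± 0.27).

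Of 6 genes that Blimp-1 is known to repress, 4 were called higher and 1 lower in KO over WT cTreg, against 14.8% and 12.6% of all genes. The rises included Bcl6 (1.04 ± 0.19), the follicular homing receptor gene Cxcr5 (1.20 ± 0.33) and Il2 (2.01 ± 0.68, adjusted p = 0.0362, edgeR), and the fall was Myc (-1.51 ± 0.15). Il2 rests on 16, 15 and 7 counts in KO cTreg against 6, 1 and 1 counts in WT cTreg, and its CPM overlapped between the groups. The median log2 fold change of the 6 was 0.41 in eTreg and 0.73 in cTreg. In eTreg Tcf7, a factor of resting and memory T cells, rose (0.32 ± 0.07) and Myc fell (-1.07 ± 0.15). Prdm1 was higher in KO cells of both gates, so among these genes Myc moved opposite to it and most of those called in cTreg moved with it.

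Of 13 partner genes, the AP-1 and interferon regulatory factor partners, E proteins and other Id genes, 10 were tested and Batf2, Batf3 and Id1 were too low. In KO over WT eTreg 0 of 10 were called by edgeR, DESeq2 or limma-voom, and 1 had an unadjusted p under 0.05 in each. By edgeR 6.65% of all genes were called there in either direction. The median log2 fold change of the 10 partner genes was 0.03 in eTreg and 0.06 in cTreg. In cTreg Irf8 rose (0.48 ± 0.16, adjusted p = 0.0359, edgeR) and Tcf4, an E protein gene, fell (-0.99 ± 0.25, adjusted p = 0.00671). No other partner gene was called in cTreg, where 14.8% of all genes were called higher and 12.6% lower. With 10 genes these counts are near the shares of all genes, so they are no result about the partners. Between the gates in WT, 6 of the 10 were called lower in eTreg and 2 higher, against 71.5% of all genes called in either direction. The lower ones included Jun (-1.99 ± 0.60), Jund (-1.52 ± 0.11) and Id3 (-1.47 ± 0.11).

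Among 20 other regulators of helper T cell types, 18 were tested, and Hlx and Zfp683 were too low. In KO over WT cTreg 12 were called higher and 1 lower, against 14.8% and 12.6% of all genes, and in eTreg 5 were called higher and 1 lower, against 3.25% and 3.4%. Their median log2 fold change was 0.29 in eTreg and 0.81 in cTreg. Runx2 (0.63 ± 0.08) and Bhlhe40 (0.54 ± 0.06) led the eTreg rises, and Tox2 (2.48 ± 0.22), Pparg (2.09 ± 0.54) and Zbtb32 (1.92 ± 0.26) those of cTreg. Pparg rests on 16, 19 and 20 counts in KO cTreg against 6, 2 and 3 counts in WT cTreg. Hopx fell in cTreg (-0.31 ± 0.08).

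Of 8 factors of the resting state, 3 fell and 1 rose in KO over WT eTreg, against 3.4% and 3.25% of all genes. In cTreg 3 fell and 2 rose, against 12.6% and 14.8%. These are calls of edgeR. In eTreg the DESeq2 Wald test called 3 higher and 3 lower, and limma-voom 2 higher and 3 lower. By edgeR 4 of the 8 eTreg values were positive and 4 negative, 3 of each with an unadjusted p under 0.05. The median log2 fold change of the 8 factors was -0.01 in eTreg and -0.17 in cTreg. Bach2, which holds T cells in the resting state by opposing AP-1 factors, had 64.3, 62.3 and 61.5 CPM in KO eTreg, against 81.7, 103 and 89.1 CPM in WT eTreg (-0.54 ± 0.08, adjusted p = 0.00136, edgeR). It had 189.7, 158 and 187 CPM in KO cTreg, against 294, 265 and 288 CPM in WT cTreg (-0.67 ± 0.08, adjusted p = 2.44e-05). Foxp1 (-0.30 ± 0.07 in eTreg and -0.50 ± 0.07 in cTreg) and Foxo1 (-0.17 ± 0.04 and -0.23 ± 0.04) fell as well, while Tcf7 rose in both gates and Ets1 in cTreg (0.17 ± 0.05). Between the gates in WT, 7 of the 8 were lower in eTreg, against 35.8% of all genes, with Klf2 (-2.36 ± 0.19) and Satb1 (-2.23 ± 0.11) lowest. Bcl6, Id3 and Tcf7, which Blimp-1 is known to repress, were also counted among the helper regulators, the partners and the resting factors, respectively. The counts of the lists thus partly repeat. These lists were chosen with results of these data known, so their counts describe the libraries and are no independent evidence of a direction.

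The genes whose profile was most like that of each factor were found among 8519 other genes by the root mean square difference of log2 CPM over the 12 libraries, each profile centred on its own mean. Cxcr3 was nearest to Tbx21 (0.232), and Zbtb32, which encodes a zinc finger repressor also called PLZP, to Eomes (0.356). Zbtb32 had 5.20, 8.30 and 6.32 CPM in KO eTreg, 3.94, 7.89 and 4.02 CPM in WT eTreg, 24.5, 38.5 and 32.2 CPM in KO cTreg and 7.94, 9.37 and 7.91 CPM in WT cTreg. Like Eomes it was highest in KO cTreg, with replicate 2 the highest library in both eTreg groups. After Zbtb32, Eomes was nearest to the mitotic genes Ccnb2 (0.368) and Birc5 (0.452). Cobll1 was nearest to Nfil3 (0.183) and was also among the nearest 3 of Prdm1 (0.211). Irf4 was nearest to Plxnc1 (0.113), Batf to Plekho1 (0.121), Maf to Nav2 (0.192), Gata3 to Nptn (0.0712), Rora to Lamc1 (0.163) and Id2 to Csf1 (0.215). Over the 4 group means, Nav2, Nptn, Lamc1, Csf1, Ccnb2, Birc5 and, for Nfil3, Cobll1 were not among the nearest 3. Among the factors themselves the closest pairs were Irf4 and Gata3 (0.168), Prdm1 and Nfil3 (0.227), and Prdm1 and Id2 (0.255). The measure grows with the range of a profile, so the distances of factors that vary little, such as Gata3 and Irf4, are not comparable with those of Tbx21 or Eomes.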

How the data were processed

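The authors deposited raw counts by gene symbol for the 12 Treg libraries, whose RNA came from a Qiagen column kit and was depleted of ribosomal RNA with RiboErase, per the labels' protocols. The submitters' processing notes name HISAT2 2.2.1, Cell Ranger and mm10, with no role for each. How reads were counted, with which annotation and strand setting, is not given in the sources used here. Loci and exon lengths are from GENCODE vM21 on mm10, and promoters from RefSeq on GRCm38.p6.

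Counts were fitted in R 4.3.3 with edgeR 4.0.16 over all 12 libraries (filterByExpr, TMM, robust quasi-likelihood F-test, two-sided, Benjamini-Hochberg over 12461 genes per comparison), and called where the adjusted p was under 0.05. Each SE is the log2 fold change over the square root of F. The common biological coefficient of variation was 0.0768, and Eomes had the largest of the 10 factors, 0.355. The steps were tested on simulated data. The alternatives were DESeq2 1.42.0 size factors and Wald test, limma-voom (limma 3.58.1), library-size scaling without Rn45s, no filter or a filter at 1 CPM in 3 libraries, the 6 libraries compared, a replicate block, a length and GC offset, and leaving out each library. Levels were also taken as CPM without TMM, and nearest genes over the 4 group means.

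The 10 factors, the gene lists and the tests were chosen with earlier results of these data known. The text names all 10 factors, up to 3 called rises and 3 called falls of each list in a comparison, and the genes nearest to each factor; some that this rule takes are not reported here, and Cxcr3, Il10 and Bcl6 were followed further after their values were seen. Pairing was checked by correlating, for same-numbered libraries, how each departs from its group mean. KO and WT eTreg of the same number gave 0.257, 0.341 and 0.166, all over 0.1, and each library was nearest to its own number, so these numbers were taken to pair; this rests on the data alone, as no label ties the numbers to a litter or day. In the other comparisons not every pair passed 0.1. No 2 libraries of a group were duplicates.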

Additional observations from a re-analysis of the deposited data

Results flagged for a closer look

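For 8 factors the KO effect differed between eTreg and cTreg by the interaction test in edgeR, with an adjusted p under 0.05. The log2 KO effect in eTreg minus that in cTreg was -1.20 for Prdm1, -0.82 for Irf4, -0.63 for Batf, -1.70 for Maf, -2.10 for Tbx21, -0.44 for Gata3, -1.03 for Rora and -1.37 for Nfil3. In each of these the KO effect was the smaller in eTreg. Over all genes tested 3.8% were called in this test, 374 with the smaller value in eTreg and 100 with the larger. Both gates' values rest on separate libraries, 3 per group, and each library was left out in turn. Without WT cTreg replicate 1 (-0.98, adjusted p = 0.0534, edgeR) or WT cTreg replicate 3 (-1.01, adjusted p = 0.056), Rora was not called.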

How the results depend on the processing

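Over the 6 comparisons and all alternatives, 1300 values of the 10 factors were recomputed, of which 1271 kept direction and call, 15 gained the call, 9 lost it and 5 changed sign. The 220 values for KO over WT in cTreg all kept both. Those that changed sign were Irf4 in KO over WT eTreg, near 0 and not called under any of these (-0.0077 with library-size scaling without Rn45s, -0.0011 without KO eTreg replicate 3; leaving out 1 library gave -0.066 without WT eTreg replicate 1 to 0.14 without WT eTreg replicate 2), and Batf (-0.37) and Tbx21 (-0.18) in KO cTreg over WT eTreg with the length and GC offset, which left 1 factor called higher there. Length and GC content were known for 95.7% of genes tested. In WT eTreg over cTreg, 1 factor, Eomes, was called lower in the DESeq2 Wald test, in limma-voom and with a replicate block in 6 libraries. With the replicate block in the 6 eTreg libraries 1712 genes were called in KO over WT eTreg, 921 higher and 791 lower, against 829 in the fit without it, 813 of them shared. Apart from Eomes in WT eTreg over cTreg and Maf and Id2 in KO over WT eTreg, the block over 12 libraries or 6 changed no call of the 10 factors. Library-size scaling without Rn45s called 301 genes higher and 546 lower in KO over WT eTreg (35.5% higher), against 405 and 424 (48.9% higher); all 4 factors called there kept their call.

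Leaving out 1 library at a time gave 455 to 890 genes called in KO over WT eTreg, with 3 to 6 factors higher, and 2534 to 3490 in cTreg, with 10. The interaction gave 314 to 570 genes and 7 to 9 factors lower. WT eTreg over cTreg gave 8452 to 9013 genes, with 9 factors higher and 0 to 1 lower. KO eTreg over cTreg gave 8442 to 9032 genes, with 8 factors higher and 1 lower. KO cTreg over WT eTreg gave 8209 to 8848 genes, with 2 to 3 factors higher and 7 lower. Over the 4 group means, 9 of the 30 nearest genes stayed among the nearest 3. Without TMM, 24 of 40 group means of CPM moved by over 1 SD. Depth limits Eomes in eTreg, at 16 to 81 counts per library.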
